A study of Mus musculus with 100 samples.

Results

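The 32 genes described here encode subunits of the receptors for glutamate and GABA, the main excitatory and inhibitory transmitters of the brain. They were taken by symbol, from a list chosen with earlier results of these data known, among 23109 gene-level entries, and all 32 were found in every one of 37 RNA tables from mouse cells and embryos. The list holds 4 AMPA, 5 kainate, 7 NMDA and 6 metabotropic glutamate receptor genes, 8 GABA-A and 2 GABA-B receptor genes. It was read first across neural differentiation, day 16 against day 8 in both genotypes, and then across whole embryos, extraembryonic lineages and embryoid bodies.

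AMPA, kainate and NMDA receptors are channels opened by glutamate, each built from several subunits that set the ions they pass and how fast they close. Metabotropic glutamate receptors and GABA-B receptors act through G proteins, and GABA-A receptors are chloride channels assembled from alpha, beta, gamma and other subunits. Neurons switch many of these genes on as they leave the progenitor state, and the mix of subunits shifts as they mature.

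The series asks how the histone methyltransferase activities of MLL3 (Kmt2c) and MLL4 (Kmt2d), which methylate lysine 4 of histone H3 at enhancers, act in embryos and in differentiating embryonic stem cells. All cultured cells carried Mll3-/-, and cells called flox here were Mll4flox/flox while cells called KI were Mll4KI/KI, as lines 27 and 48. Neural cultures were aggregates given retinoic acid after day 4 (day 8, neural progenitors) and then plated without it in N-2 and later B-27 medium until day 16, and embryoid bodies were sampled as stem cells and on days 4 and 10. Trophectoderm cultures expressed CDX2 from a doxycycline-inducible lentivirus for 6 days, and extraembryonic endoderm was grown for 5 days with retinoic acid and Activin A. The embryos, taken whole at stage E8.5 or E9.5, were Mll3flox/KI;Mll4flox/KI;Sox2-Cre (KI) or Mll3flox/KI;Mll4flox/+;Sox2-Cre (Ctr), so that both groups carried Sox2-Cre, active in the epiblast, and 1 KI allele of Mll3. The labels do not spell out what KI replaces, and they do not say whether flox replicates 1 and 2 are separate lines. The 18 groups held 1 library (3 groups), 2 libraries (11 groups) or 3 libraries (4 groups), and p-values measure only the spread between such libraries. In embryoid bodies that spread also holds any KI effect that changes with day.

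Neural libraries held 39.0 to 59.9 M gene-level reads and the other libraries 18.9 to 27.6 M, so that 3 reads, the limit that a count of 0 allows, stood for 0.0501 to 0.159 CPM, counts scaled to a common library total. Transcripts of both targeted genes were read in every library: Kmt2d was at 149 to 334 CPM and Kmt2c at 27.6 to 99.4 CPM, also in Mll3-/- cells, so that these levels do not check the genotypes. Progenitor markers summed to 1319 to 1334 CPM in flox at day 8 and 287 to 323 CPM at day 16, and neuron markers to 1969.6 to 1975 and 4454 to 4662 CPM, with none of the 9 neuron markers at 3 reads or fewer in a neural group. In KI, progenitor markers summed to 1301 to 1354 CPM at day 8 and 224 to 227 CPM at day 16, and neuron markers to 1248 to 1424 and 7518 to 8348 CPM. Markers of other cells moved between the days too. The summed fibroblast and mesenchyme markers were at 325 to 326 CPM at day 8 and 3453 to 3743 CPM at day 16 in flox, and at 137 to 184 and 954 to 1130.5 CPM in KI. The summed astrocyte and radial glia markers were at 137 to 139 CPM at day 8 and 535 to 597 CPM at day 16 in flox, and at 67.6 to 80.2 and 498 to 621 CPM in KI. Oligodendrocyte lineage markers summed to 44.3 to 45.3 CPM at day 8 and 86.0 to 89.6 CPM at day 16 in flox. In KI they summed to 35.9 to 40.7 and 71.2 to 74.0 CPM. Cardiomyocyte markers were at 2.04 to 2.19 and 6.43 to 9.03 CPM in flox. In KI these were at 1.40 to 1.46 and 7.40 to 9.78 CPM. Pluripotency markers were at 8.35 to 8.71 and 24.5 to 26.5 CPM in flox, and 8.33 to 8.57 and 10.5 to 16.4 CPM in KI. These sums of other cells were higher at day 16 in both genotypes, while the next ones were lower. The summed trophoblast markers were at 118 to 121 CPM at day 8 and 8.94 to 10.6 CPM at day 16 in flox, and at 95.7 to 123 and 0.701 to 1.04 CPM in KI. The summed mesothelium markers were at 110.2 to 112 CPM at day 8 and 82.9 to 85.1 CPM at day 16 in flox, and at 56.3 to 56.9 and 5.63 to 8.78 CPM in KI. The summed endoderm markers were at 105 to 105 CPM at day 8 and 74.1 to 74.4 CPM at day 16 in flox, and at 34.1 to 36.7 and 12.2 to 23.5 CPM in KI. The part of these shifts in the day effects that follow was not tested. Values beside tests are CPM scaled by TMM within each of 4 fits (neural, embryo, extraembryonic, embryoid body), and a gene is called where edgeR's quasi-likelihood test gave a Benjamini-Hochberg adjusted p under 0.05 over all genes tested. The library kit does not mark strand, and the spans of 9 members (Grik5, Grin1, Grin3a, Grin3b, Grm8, Gabra3, Gabra4, Gabra5 and Gabrb1) overlap another gene of the tables, in the case of Gabra4 and Gabrb1 each other, so that their reads cannot be told apart where the genes overlap.

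Receptor subunit genes rose together as neural cultures went from day 8 to day 16. In flox cells 29 of 32 were called higher at day 16 and 2 lower, and in KI cells 30 were called higher and 1 lower. Of all 16439 genes tested, 77.1% were called in flox (38.4% higher) and 79.9% in KI (40.7% higher), so that most genes were called between these days, about as many higher as lower. Their median log2 change was 4.39 in flox and 5.10 in KI, beside -0.02 and 0.01 over all genes. A rise of at least 8-fold was called for 22 members in flox and 26 in KI. For 13 and 16 of them it was at least 32-fold. These counts hold Gabrg3 from 4 reads or fewer in each day 8 library, and in KI also Gabrb1 from 4 reads in each. The share of all genes that rose this far was not counted, so that the counts cannot be set against it.

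Summed over the 32 genes, the level went from 387 ± 3.04 CPM (mean ± SD, n = 2) at day 8 to 2457 ± 0.377 CPM at day 16 in flox and from 363 ± 23.1 to 3638 ± 149 CPM in KI. At day 8, 14 members averaged under 1 CPM in each genotype, and at day 16 none did. All 32 passed the filter on low counts in the neural fit, the low ones through their day 16 libraries, and 25 (flox) and 28 (KI) had at least 10 reads in every day 8 library. Folds of the other members rest on fewer reads at day 8, so that their sizes are uncertain. In bulk RNA, more cells of a type and more RNA per cell cannot be told apart, and this holds for each result below.

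**Figure D1:**
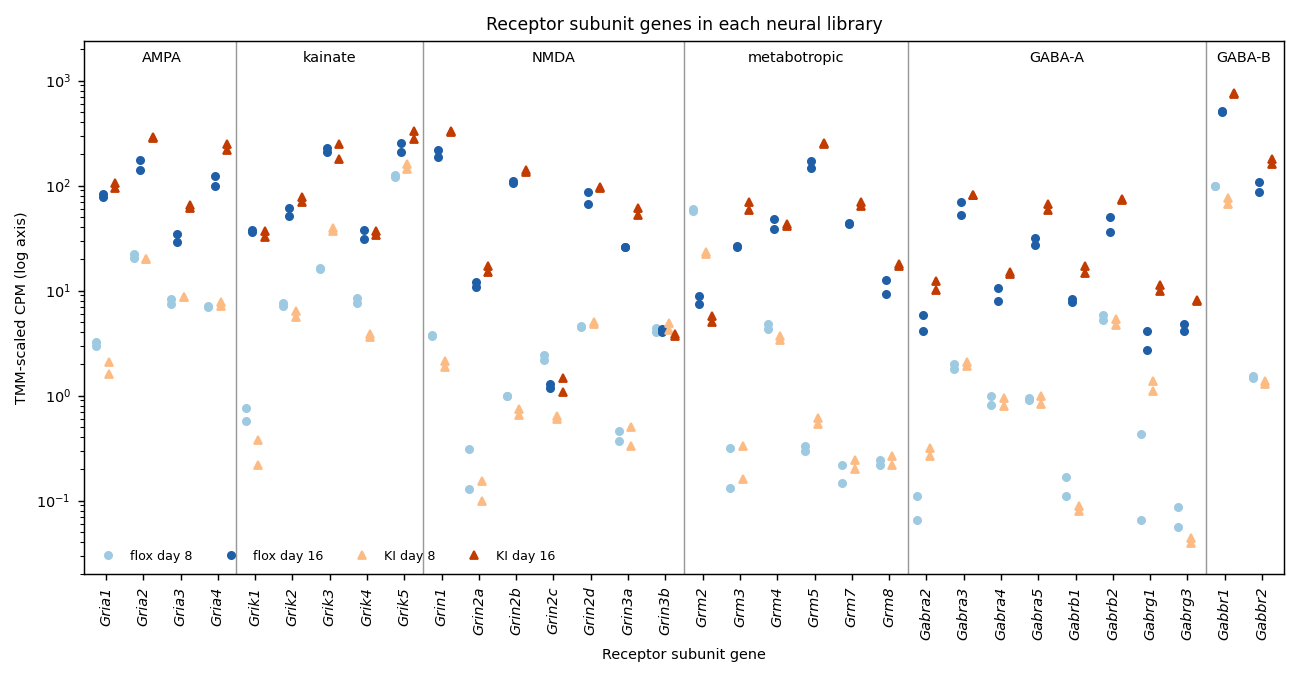
TMM-scaled CPM (log axis) of each receptor subunit gene in each of the 8 neural libraries, with circles for flox, triangles for KI, pale symbols for day 8 and dark symbols for day 16. The dark symbols lie above the pale ones for nearly every gene, with Grm2 the other way round in both genotypes, Grin2c in flox, and Grin3b at nearly the same height at both days in flox, with the KI day 16 libraries below those of day 8.

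The promoters of 24 members, as 31 entries of 300 bases (250 before to 50 after the start), are in the RefSeq table for GRCm38.p6, while the expression tables were made on mm9. They were searched on both strands for core letters of the element bound by REST, a repressor of neuronal genes outside neurons: AGCACC from its left part and, from its right part, GGACAG. The GC box GGGCGG was searched as well, with the E box CAGCTG and a variant of it, CATCTG, which proneural factors read. GGACAG was found for 11 of the 24 members, in 38.7% of their promoters against 22.2% of all 32851 promoters of the same length, and AGCACC for 4, in 12.9% against 16.2%. Both cores in element order, 1 to 4 bases apart, were found for Gria2 alone among the 24, and in 0.0761% of all promoters. GGGCGG was in 51.6% of member promoters and 35.7% of all, CATCTG in 6.45% and 17.2%, and CAGCTG in none of the 31 and 16.3% of all; the median GC content was 61.0% in member promoters and 52.7% in all. These matches describe letters in these windows only.

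3 of these promoters are shown, 5′ to 3′ on the gene's own (minus) strand, with either core, or its reverse complement, in capitals: Gria2 (chr3:80802786-80803085), the AMPA gene with both cores; Grin1 (chr2:25319138-25319437), the shared NMDA subunit; and Grm2 (chr9:106656060-106656359), the one member that fell in both genotypes, where the cores lie further apart.
Gria2 promoter: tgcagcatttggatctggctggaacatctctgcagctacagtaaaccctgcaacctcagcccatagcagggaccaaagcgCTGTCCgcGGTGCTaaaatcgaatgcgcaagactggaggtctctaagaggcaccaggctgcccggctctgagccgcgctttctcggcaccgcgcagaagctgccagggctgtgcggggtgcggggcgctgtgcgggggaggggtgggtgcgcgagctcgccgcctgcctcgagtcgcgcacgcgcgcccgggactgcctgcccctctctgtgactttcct
Grin1 promoter: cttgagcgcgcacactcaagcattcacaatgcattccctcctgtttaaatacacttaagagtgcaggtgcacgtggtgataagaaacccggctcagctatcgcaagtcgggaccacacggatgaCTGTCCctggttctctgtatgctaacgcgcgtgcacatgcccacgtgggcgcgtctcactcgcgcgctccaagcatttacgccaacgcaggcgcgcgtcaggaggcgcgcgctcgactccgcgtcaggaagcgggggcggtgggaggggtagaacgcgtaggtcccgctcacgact
Grm2 promoter: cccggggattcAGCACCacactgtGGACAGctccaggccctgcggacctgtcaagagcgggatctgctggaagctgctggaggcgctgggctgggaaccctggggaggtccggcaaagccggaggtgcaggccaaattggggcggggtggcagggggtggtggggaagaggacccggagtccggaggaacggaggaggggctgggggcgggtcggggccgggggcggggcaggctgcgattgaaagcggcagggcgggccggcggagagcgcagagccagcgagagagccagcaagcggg

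All 4 AMPA genes rose in both genotypes. They summed to 39.6 ± 1.93 CPM at day 8 and 382 ± 48.7 CPM at day 16 in flox, and 38.3 ± 0.739 and 682 ± 19.5 CPM in KI. Gria2 was at 20.7 and 22.5 CPM in flox at day 8 and at 176 and 141 CPM at day 16. In KI, Gria2 was at 20.2 and 20.2 CPM at day 8 and at 288 and 282 CPM at day 16. Gria2 encodes the subunit that makes AMPA channels nearly impermeable to calcium, and its promoter is the first shown above. Every day 16 library stood above every day 8 library of its genotype, and both KI libraries at day 16 stood above both flox ones. For Gria2, the log2 change from day 8 to day 16 was 2.88 (SE 0.116, edgeR adjusted p = 2.78e-10) in flox and 3.81 (SE 0.121, edgeR adjusted p = 2.06e-11) in KI. Gria4 was at 7.12 and 6.98 CPM in flox at day 8 and at 123 and 100.0 CPM at day 16. In KI, Gria4 was at 7.19 and 7.81 CPM at day 8 and at 220.2 and 247 CPM at day 16. Gria4, like Gria1 and Gria3, encodes a subunit whose channels pass calcium when Gria2's product is missing, and its flox and KI libraries stood close together at day 8 and apart at day 16. For Gria4, the log2 change from day 8 to day 16 was 3.98 (SE 0.125, edgeR adjusted p = 4.08e-11) in flox and 4.96 (SE 0.130, edgeR adjusted p = 5.17e-12) in KI.

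Gria1 was at 2.99 and 3.21 CPM in flox at day 8 and at 83.6 and 77.2 CPM at day 16. In KI, Gria1 was at 1.62 and 2.10 CPM at day 8 and at 94.4 and 105 CPM at day 16. At day 8 the KI libraries were the lower ones and at day 16 the higher ones. For Gria1, the log2 change from day 8 to day 16 was 4.69 (SE 0.130, edgeR adjusted p = 1.73e-11) in flox and 5.74 (SE 0.139, edgeR adjusted p = 3.34e-12) in KI. Gria3 had the smallest change of the class, 2.01 in flox and 2.86 in KI, from 7.94 ± 0.593 to 32.01 ± 3.79 CPM and from 8.67 ± 0.0383 to 63.2 ± 3.16 CPM (mean ± SD, n = 2). The make-up of the class shifted with these unequal rises: on the deposited RPKM scale, which corrects for length, Gria2 made up 48.4% and 36.3% in flox and 46.8% and 36.5% in KI of the class at days 8 and 16, and Gria1 8.29% and 22.1% in flox and 5.11% and 15.3% in KI. Gria3's share was 23.4% and 9.67% in flox and 26.4% and 10.7% in KI, and Gria4's was 19.9% and 31.97% in flox and 21.7% and 37.6% in KI. Gria1 and Gria4 thus held more of the summed level at day 16 than at day 8, and Gria2 and Gria3 less, in both genotypes.

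The 5 kainate genes also rose in both genotypes, with a wide range of sizes. They summed to 156 ± 2.36 CPM at day 8 and 578 ± 44.1 CPM at day 16 in flox, and 201 ± 15.2 and 663 ± 94.4 CPM in KI. Grik5 was at 122 and 125 CPM in flox at day 8 and at 209 and 257 CPM at day 16. In KI, Grik5 was at 161 and 143 CPM at day 8 and at 278 and 329.6 CPM at day 16. Grik5 encodes a high-affinity subunit that needs one of Grik1 to Grik3 to form a channel, and it held the largest share of kainate RPKM at both days and in both genotypes. For Grik5, the log2 change from day 8 to day 16 was 0.92 (SE 0.120, edgeR adjusted p = 1.70e-05) in flox and 1.00 (SE 0.120, edgeR adjusted p = 6.77e-06) in KI. This was the smallest called rise among the 32 genes in each genotype, from the highest day 8 reads of the list. Grik3 was at 16.1 and 16.4 CPM in flox at day 8 and at 207 and 228 CPM at day 16. In KI, Grik3 was at 39.7 and 37.3 CPM at day 8 and at 181 and 248 CPM at day 16. At day 8 both KI libraries of Grik3, a low-affinity subunit, stood above both flox ones, and at day 16 the groups overlapped. For Grik3, the log2 change from day 8 to day 16 was 3.74 (SE 0.145, edgeR adjusted p = 1.97e-10) in flox and 2.48 (SE 0.136, edgeR adjusted p = 3.34e-09) in KI.

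Grik1 was at 0.769 and 0.576 CPM in flox at day 8 and at 38.0 and 35.9 CPM at day 16. In KI, Grik1 was at 0.377 and 0.220 CPM at day 8 and at 32.6 and 37.1 CPM at day 16. Grik1, another low-affinity subunit, was under 1 CPM in each day 8 library and lowest in KI. For Grik1, the log2 change from day 8 to day 16 was 5.79 (SE 0.176, edgeR adjusted p = 3.15e-11) in flox and 6.87 (SE 0.199, edgeR adjusted p = 1.02e-11) in KI. Grik4 was at 8.59 and 7.58 CPM in flox at day 8 and at 31.3 and 37.8 CPM at day 16. In KI, Grik4 was at 3.84 and 3.63 CPM at day 8 and at 34.0 and 36.8 CPM at day 16. Grik4, the second high-affinity subunit, was lower in KI at day 8 and overlapped between genotypes at day 16. For Grik4, the log2 change from day 8 to day 16 was 2.10 (SE 0.124, edgeR adjusted p = 9.63e-09) in flox and 3.24 (SE 0.134, edgeR adjusted p = 2.14e-10) in KI. Grik2, the low-affinity subunit most studied in brain, rose by 2.92 in flox and 3.64 in KI, to 56.0 ± 7.16 and 74.6 ± 5.65 CPM. Of the summed RPKM of the class, Grik5 held 84.6% and 51.8% in flox and 85.5% and 57.2% in KI at days 8 and 16, and Grik3 4.84% and 21.1% in flox and 9.39% and 17.4% in KI.

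Among the 7 NMDA genes, 5 rose in flox and 6 in KI, and the class had the steepest rise of its sum among the ionotropic glutamate receptors. The sum was 16.5 ± 0.552 CPM at day 8 and 432 ± 42.4 CPM at day 16 in flox, and 13.4 ± 0.868 and 643 ± 4.46 CPM in KI. Grin1 was at 3.78 and 3.73 CPM in flox at day 8 and at 188 and 219.9 CPM at day 16. In KI, Grin1 was at 2.15 and 1.86 CPM at day 8 and at 334 and 327 CPM at day 16. Grin1 encodes the subunit that every NMDA receptor needs. Its KI libraries were the lower ones at day 8 and the higher ones at day 16, without overlap on either day. For Grin1, the log2 change from day 8 to day 16 was 5.76 (SE 0.126, edgeR adjusted p = 6.24e-12) in flox and 7.37 (SE 0.138, edgeR adjusted p = 1.37e-12) in KI. Grin2b was at 0.989 and 0.984 CPM in flox at day 8 and at 106 and 111 CPM at day 16. In KI, Grin2b was at 0.755 and 0.659 CPM at day 8 and at 135 and 139.6 CPM at day 16. Grin2b, the main GluN2 subunit of the fetal forebrain, was at or under 1 CPM in each day 8 library and above 100 CPM in each day 16 library. For Grin2b, the log2 change from day 8 to day 16 was 6.78 (SE 0.120, edgeR adjusted p = 5.31e-12) in flox and 7.599 (SE 0.126, edgeR adjusted p = 1.32e-12) in KI.

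The other GluN2 genes split. Grin2d, the GluN2 subunit of early brainstem and midbrain, rose by 4.08 in flox and 4.29 in KI, to 77.2 ± 15.0 and 96.9 ± 1.65 CPM, and Grin2a, which replaces Grin2b as synapses mature, rose by 5.73 and 6.97, to 11.4 ± 0.932 and 16.2 ± 1.42 CPM (its change in flox was 6.43 without flox day 8 replicate 1). Grin2c was at 2.46 and 2.17 CPM in flox at day 8 and at 1.19 and 1.30 CPM at day 16. In KI, Grin2c was at 0.644 and 0.599 CPM at day 8 and at 1.49 and 1.08 CPM at day 16. Grin2c, known for its expression in cerebellar granule cells, went in opposite directions: in flox the day 16 libraries lay below the day 8 ones, and in KI above them. For Grin2c, the log2 change from day 8 to day 16 was -0.89 (SE 0.213, edgeR adjusted p = 0.00210) in flox and 1.04 (SE 0.249, edgeR adjusted p = 0.00196) in KI. By RPKM share of the 4 GluN2 genes, Grin2d held 61.5% and 50.3% in flox and 81.9% and 50.0% in KI at days 8 and 16, Grin2b 7.77% and 41.7% in flox and 6.83% and 41.3% in KI, and Grin2c 27.9% and 0.734% in flox and 9.21% and 0.594% in KI. Day 16 cultures of both genotypes thus had close to equal parts of Grin2b and Grin2d, from a day 8 state in which Grin2d led.

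The GluN3 subunits bind glycine and lower the calcium flow of NMDA receptors. Grin3a was at 0.374 and 0.464 CPM in flox at day 8 and at 25.9 and 26.0 CPM at day 16. In KI, Grin3a was at 0.333 and 0.499 CPM at day 8 and at 53.1 and 61.1 CPM at day 16. Grin3a overlapped between genotypes at day 8, and at day 16 both KI libraries stood above both flox ones. For Grin3a, the log2 change from day 8 to day 16 was 5.93 (SE 0.175, edgeR adjusted p = 2.57e-11) in flox and 7.08 (SE 0.175, edgeR adjusted p = 3.60e-12) in KI. Grin3b was at 4.42 and 4.05 CPM in flox at day 8 and at 4.27 and 4.00 CPM at day 16. In KI, Grin3b was at 4.95 and 4.23 CPM at day 8 and at 3.69 and 3.87 CPM at day 16. Grin3b, known from motor neurons, was the one member called in neither genotype, with a log2 change of -0.03 (95% interval -0.36 to 0.30, edgeR adjusted p = 0.861) in flox and -0.28 (95% interval -0.61 to 0.05, adjusted p = 0.106) in KI. With library totals in place of TMM scaling it was called lower in KI (edgeR adjusted p = 0.0110), as it was with the gene length trend removed (0.0354).

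The metabotropic glutamate genes held both the largest rises and the one fall shared by both genotypes. They summed to 64.7 ± 1.87 CPM at day 8 and 292 ± 12.3 CPM at day 16 in flox, and 27.7 ± 0.823 and 449.7 ± 1.85 CPM in KI. Grm5 was at 0.330 and 0.297 CPM in flox at day 8 and at 172 and 147 CPM at day 16. In KI, Grm5 was at 0.533 and 0.619 CPM at day 8 and at 257 and 249 CPM at day 16. Grm5 encodes a receptor coupled to phospholipase C and sits at postsynaptic sites, and it was under 1 CPM in each day 8 library and above 100 CPM in each day 16 library. For Grm5, the log2 change from day 8 to day 16 was 8.99 (SE 0.161, edgeR adjusted p = 5.31e-12) in flox and 8.77 (SE 0.152, edgeR adjusted p = 1.37e-12) in KI. These are 507-fold and 436-fold. Grm7 was at 0.220 and 0.149 CPM in flox at day 8 and at 44.4 and 43.4 CPM at day 16. In KI, Grm7 was at 0.244 and 0.200 CPM at day 8 and at 70.4 and 63.5 CPM at day 16. Grm7, a presynaptic receptor that lowers transmitter release, had the second largest change in each genotype. For Grm7, the log2 change from day 8 to day 16 was 7.90 (SE 0.173, edgeR adjusted p = 6.24e-12) in flox and 8.23 (SE 0.168, edgeR adjusted p = 1.58e-12) in KI.

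Grm3 was at 0.132 and 0.316 CPM in flox at day 8 and at 25.9 and 26.7 CPM at day 16. In KI, Grm3 was at 0.333 and 0.160 CPM at day 8 and at 59.0 and 69.6 CPM at day 16. Grm3, an inhibitory receptor of neurons and astrocytes, was near the limit of detection at day 8 and had the third largest change in each genotype. In flox its lead over Grin2b was smaller than its SE, so that this rank is not settled there. For Grm3, the log2 change from day 8 to day 16 was 6.82 (SE 0.239, edgeR adjusted p = 8.64e-11) in flox and 8.04 (SE 0.235, edgeR adjusted p = 1.12e-11) in KI. Without 1 library of day 8 the change of Grm3 was up to 7.62 in flox (replicate 2 left out) and 8.64 in KI (replicate 27 left out). Grm2 was at 60.3 and 58.0 CPM in flox at day 8 and at 7.43 and 8.83 CPM at day 16. In KI, Grm2 was at 23.6 and 22.3 CPM at day 8 and at 4.99 and 5.80 CPM at day 16. Grm2, its closest relative and known mainly as a presynaptic autoreceptor, did the reverse: each day 16 library stood below each day 8 library, and KI stood below flox on both days. For Grm2, the log2 change from day 8 to day 16 was -2.87 (SE 0.119, edgeR adjusted p = 3.50e-10) in flox and -2.08 (SE 0.120, edgeR adjusted p = 5.46e-09) in KI. Grm4 and Grm8, which belong with Grm7, rose by 3.25 and 5.55 in flox and by 3.59 and 6.16 in KI. Grm2 held 91.1% and 4.31% in flox and 82.7% and 1.92% in KI of the summed RPKM of these 6 genes at days 8 and 16, and Grm5 0.188% and 33.0% in flox and 0.811% and 35.1% in KI.

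Each of the 8 GABA-A genes rose in both genotypes. They summed to 9.80 ± 0.244 CPM at day 8 and 164 ± 31.0 CPM at day 16 in flox, and 10.5 ± 0.561 and 279 ± 3.99 CPM in KI. Gabra3 was at 1.78 and 2.02 CPM in flox at day 8 and at 69.4 and 52.0 CPM at day 16. In KI, Gabra3 was at 2.11 and 1.94 CPM at day 8 and at 80.9 and 82.2 CPM at day 16. Gabra3, an alpha subunit abundant in the developing brain, held the largest RPKM share of the 4 alpha genes at day 8 in both genotypes. For Gabra3, the log2 change from day 8 to day 16 was 4.99 (SE 0.161, edgeR adjusted p = 4.66e-11) in flox and 5.33 (SE 0.161, edgeR adjusted p = 1.41e-11) in KI. Gabrb2 was at 5.80 and 5.24 CPM in flox at day 8 and at 50.8 and 36.0 CPM at day 16. In KI, Gabrb2 was at 5.33 and 4.71 CPM at day 8 and at 73.2 and 74.4 CPM at day 16. Gabrb2 encodes a beta subunit, part of the GABA binding site, and already stood near 5 CPM in each day 8 library. For Gabrb2, the log2 change from day 8 to day 16 was 2.98 (SE 0.157, edgeR adjusted p = 3.21e-09) in flox and 3.88 (SE 0.161, edgeR adjusted p = 2.29e-10) in KI.

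Gabra5 was at 0.901 and 0.947 CPM in flox at day 8 and at 31.7 and 27.3 CPM at day 16. In KI, Gabra5 was at 0.999 and 0.839 CPM at day 8 and at 58.8 and 66.7 CPM at day 16. Gabra5, an alpha subunit of receptors outside the synapse, differed little between genotypes at day 8 and was higher in both KI libraries at day 16. For Gabra5, the log2 change from day 8 to day 16 was 4.99 (SE 0.153, edgeR adjusted p = 3.28e-11) in flox and 6.10 (SE 0.155, edgeR adjusted p = 4.29e-12) in KI. Gabrb1 was at 0.110 and 0.167 CPM in flox at day 8 and at 8.40 and 7.73 CPM at day 16. In KI, Gabrb1 was at 0.0888 and 0.0799 CPM at day 8 and at 17.3 and 14.8 CPM at day 16. Gabrb1, another beta subunit, rested on few reads at day 8, 5 and 9 in flox and 4 in each KI library. All 4 libraries were under 1 CPM there, so that the sizes of its changes are uncertain. For Gabrb1, the log2 change from day 8 to day 16 was 5.82 (SE 0.232, edgeR adjusted p = 2.53e-10) in flox and 7.54 (SE 0.245, edgeR adjusted p = 2.49e-11) in KI. The alpha genes Gabra2 and Gabra4 rose by 5.75 and 3.35 in flox and by 5.24 and 4.07 in KI, and the gamma gene Gabrg1 by 3.73 and 3.09. The flox change of Gabra2 rests on 3 and 6 reads at day 8. Gabrg1 had 3 and 23 reads in the flox day 8 libraries (0.0659 and 0.427 CPM), and without the second its change in flox was 5.67 and the difference of the day effect, KI minus flox, was called, at -2.57 (edgeR adjusted p = 0.0138), in place of -0.64 (adjusted p = 0.431). Gabrg3, another gamma gene, had 4 and 3 reads in the flox day 8 libraries and 2 in each KI one, against 4.78 and 4.10 CPM in flox and 8.21 and 7.96 CPM in KI at day 16, and no fold is given from so few reads. Gamma subunits place the receptor at synapses and set its response to benzodiazepines.

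Of the summed RPKM of the 4 alpha genes, Gabra3 held 45.9% and 51.3% in flox and 44.5% and 40.8% in KI at days 8 and 16, and Gabra5 31.1% and 35.0% in flox and 28.1% and 43.7% in KI. At day 16 Gabra3 was thus the leading alpha gene in flox, while in KI Gabra5 was slightly ahead. Several of these genes lie side by side: Gabrg1 is next to Gabra2 and Gabra4 next to Gabrb1 on chromosome 5, and Gabrg3 is next to Gabra5 on chromosome 7, and both genes of each pair rose in both genotypes.

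Both GABA-B genes rose. Gabbr1 was at 98.5 and 99.9 CPM in flox at day 8 and at 517 and 504 CPM at day 16. In KI, Gabbr1 was at 75.7 and 66.6 CPM at day 8 and at 740.2 and 761 CPM at day 16. Gabbr1 encodes the subunit that binds GABA and had the most reads of the 32 genes at day 16, uncorrected for length. For Gabbr1, the log2 change from day 8 to day 16 was 2.36 (SE 0.0973, edgeR adjusted p = 3.32e-10) in flox and 3.40 (SE 0.102, edgeR adjusted p = 1.30e-11) in KI. Gabbr2 was at 1.54 and 1.49 CPM in flox at day 8 and at 87.4 and 108 CPM at day 16. In KI, Gabbr2 was at 1.38 and 1.28 CPM at day 8 and at 161 and 181 CPM at day 16. Gabbr2 encodes the partner that carries the receptor to the surface and couples it to G proteins, and a working receptor needs both. For Gabbr2, the log2 change from day 8 to day 16 was 6.01 (SE 0.146, edgeR adjusted p = 8.89e-12) in flox and 7.01 (SE 0.152, edgeR adjusted p = 1.93e-12) in KI. Gabbr2's share of the summed RPKM of the pair was 1.68% and 17.6% in flox and 2.05% and 20.3% in KI at days 8 and 16, so that the large excess of Gabbr1 message in progenitors narrowed at day 16.

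**Figure D2:**
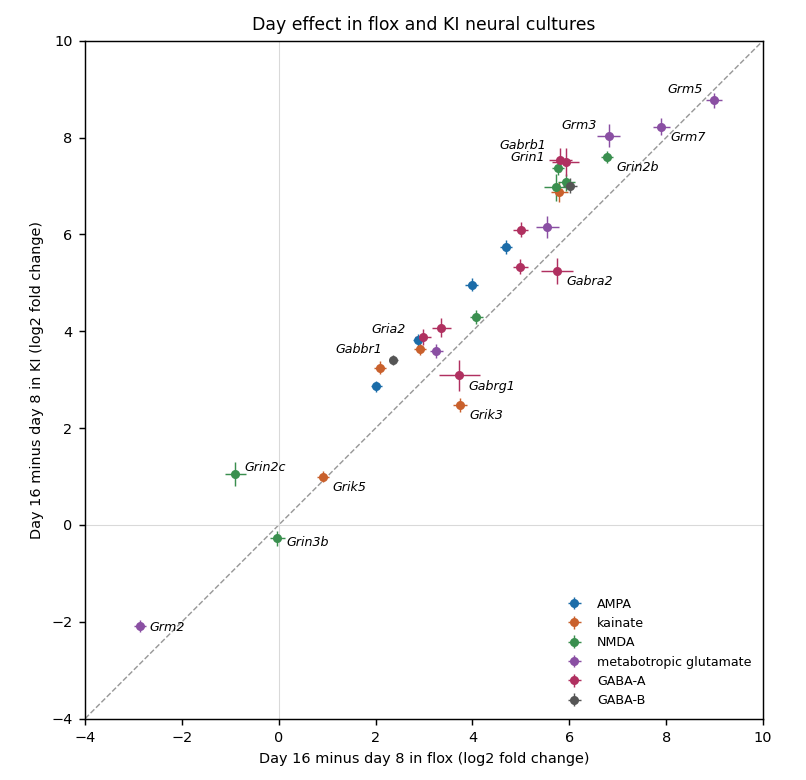
Log2 fold change from day 8 to day 16 in flox (horizontal) and KI (vertical) for each of the 32 genes, with standard errors as bars, coloured by class; the dashed line marks equal change. Most points lie above the line, Grik3 lies below it, Grm2 is in the lower left corner, and Grin2c is below 0 on the flox axis and above 0 on the KI axis.

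With its sign, the log2 change from day 8 to day 16 was higher in KI than in flox for 27 of 32 members. Grm2, which fell less in KI, is among them, and the share of all genes was not counted. The difference itself was called for 18. It was called higher in KI for 17 members and lower for 1, beside 33.2% of all genes called (19.2% higher, 14.0% lower), with a median difference of 0.88 (log2) for the members and 0.08 for all genes. All 4 AMPA genes were among the 17, at 0.85 to 1.05, as were both GABA-B genes, at 1.03 (Gabbr1) and 1.00 (Gabbr2). The NMDA genes Grin1, Grin2b, Grin2c and Grin3a were called too. For Grin1 the difference was 1.61 (SE 0.168, edgeR adjusted p = 2.99e-05), and for Grin2c 1.94 (SE 0.328, edgeR adjusted p = 8.57e-04). In the kainate class Grik4 had a difference of 1.15 (SE 0.178, edgeR adjusted p = 4.70e-04) and Grik2 one of 0.72, while Grik3 rose less in KI, with a difference of -1.26 (SE 0.186, edgeR adjusted p = 3.27e-04).

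Gabra5 had a difference of 1.103 (SE 0.237, edgeR adjusted p = 0.00390) and Gabrb2 one of 0.90. Grm2, which fell in both genotypes, fell less in KI, with a difference of 0.78 (SE 0.165, edgeR adjusted p = 0.00344). The direction of each of these differences held under every alternative run, but 4 calls depended on single libraries. Grik1 (1.09, edgeR adjusted p = 0.0238) lost its call without flox day 8 replicate 1 (0.122), KI day 8 replicate 48 (0.165) or KI day 16 replicate 48 (0.0530), and with library totals only (0.0505), values that are again edgeR adjusted p. Grin3a (1.15, edgeR adjusted p = 0.0145) lost it without flox day 8 replicate 2 (0.120) or KI day 8 replicate 27 (0.0729). Gabrb1 (1.72, edgeR adjusted p = 0.0238) lost it without flox day 8 replicate 2 (0.262), KI day 8 replicate 27 (0.0636) or replicate 48 (0.0876), and Gabrb2 without KI day 8 replicate 48 (0.0518). The 2 KI lines were sampled on both days, and with the line as a replicate block Grm3 (1.21, edgeR adjusted p = 0.0478) and Gabra4 (0.74, adjusted p = 0.0472) were called as well, which without it had adjusted p = 0.0790 and 0.0737.

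At day 8 the genotypes differed at 11 members, 4 higher and 7 lower in KI. Among all genes 19.5% were called, 6.30% higher and 13.2% lower, and the median difference was -0.08 for the members and 0.00 for all genes. Grik3 was higher in KI, with a log2 difference of 1.24 (SE 0.135, edgeR adjusted p = 3.77e-05). Gabrg1 (2.26, edgeR adjusted p = 0.00617), Gabra2 (1.67, 0.0399) and Grm5 (0.88, 0.0302) were called higher from mean levels of at most 1.24 CPM. Without single libraries of day 8 the last 2 lost their calls each time (adjusted p of 0.0692 to 0.200 for Gabra2 and 0.0543 to 0.223 for Grm5), and without flox replicate 2 the Gabrg1 difference was 4.19; Gabrg1 lost its call without KI replicate 48 (0.0612).

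Lower in KI at day 8 were Grm2, with a log2 difference of -1.37 (SE 0.110, edgeR adjusted p = 3.74e-06), and Grin2c, with -1.89 (SE 0.235, edgeR adjusted p = 1.03e-04). The log2 differences of Grik4, Grin1 and Gabbr1 were -1.11, -0.91 and -0.48, with KI libraries all below flox. Gria1 (-0.73) and Grik1 (-1.17) were called lower too, with edgeR adjusted p = 0.00435 and 0.0164; Gria1 lost its call without KI replicate 27 (0.0521) and Grik1 without flox replicate 1 (0.120) or KI replicate 48 (0.171). Of the other cell lists, 8 of 9 neuron markers were called lower in KI at day 8, with sums of 1969.6 to 1975 CPM in flox and 1248 to 1424 CPM in KI, while the progenitor markers summed to 1319 to 1334 and 1301 to 1354 CPM. Sums of other markers were lower in KI as well, with 4 of 5 endoderm markers called lower (sums of 105 to 105 CPM in flox and 34.1 to 36.7 CPM in KI), 4 of 5 fibroblast and mesenchyme markers (325 to 326 and 137 to 184 CPM), 2 of 4 mesothelium markers (110.2 to 112 and 56.3 to 56.9 CPM) and 2 of 5 tested astrocyte and radial glia markers (137 to 139 and 67.6 to 80.2 CPM), and none of these higher. Of 6 oligodendrocyte lineage markers 3 were called higher in KI and 1 lower (median 0.29), with sums of 44.3 to 45.3 CPM in flox and 35.9 to 40.7 CPM in KI. The part of these shifts in the receptor results was not tested.

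At day 16, 25 members were higher in KI and 1 was lower. Of all genes 46.9% were called, 27.1% higher and 19.7% lower, and the median difference was 0.63 for the members and 0.09 for all genes. With TMM scaling, KI libraries stood above both flox libraries for each of the 25. On CPM over library totals they overlapped at Gria1, Grik5 and Grin2d. The share of all genes without overlap was not counted. The 3 largest differences were at Gabrg1, Grm3 and Gabra2. Gabrg1 was at 4.16 and 2.70 CPM in flox and 10.0 and 11.3 CPM in KI, a log2 difference of 1.62 (SE 0.286, edgeR adjusted p = 9.38e-04). For Grm3 the difference was 1.29 (SE 0.141, edgeR adjusted p = 1.96e-05), and for Gabra2 1.17 (SE 0.183, edgeR adjusted p = 3.06e-04). Differences of at least 2-fold were also called at Grin3a (1.14), Gabra5 (1.09) and Gria4 (1.07).

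By class, all 4 AMPA (median 0.91), all 8 GABA-A (0.93) and both GABA-B genes (0.68) were higher in KI, as were 5 of 7 NMDA (0.34), 4 of 6 metabotropic (0.64) and 2 of 5 kainate genes (0.04). Grm2 was lower, with a difference of -0.58 (SE 0.124, edgeR adjusted p = 0.00232). Grik1, Grik3, Grik4, Grin2c, Grin3b and Grm4 were not called; for Grik3 the difference was -0.02 with a 95% interval of -0.30 to 0.26, and for Grik4 0.04 with -0.21 to 0.29. 3 members, Gria1, Grin1 and Gabbr1, were called lower in KI at day 8 and higher at day 16. Gabra2, Gabrg1 and Grm5 were called higher on both days, and Grm2 lower on both.

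The smaller differences depended on the scaling and on the libraries in the fit: with library totals in place of TMM factors, which moved the median of all genes from 0.09 to -0.12 and that of the members from 0.63 to 0.43, 19 members were called. The 7 that lost their call there were Gria1, Grik2, Grik5, Grin2a, Grin2b, Grin2d and Gabra3, none with its sign changed. All of these but Grin2a also lost it in a fit of the 4 day 16 libraries alone, Grin2b with edgeR adjusted p = 0.112. Of the 7, 6 also lost it without a single day 16 library: Gria1, Grik2 and Gabra3 without flox replicate 2 or KI replicate 48, Grik5 without flox replicate 1 or KI replicate 48, Grin2a without flox replicate 1 or KI replicate 27, and Grin2d without flox replicate 1 or either KI replicate (edgeR adjusted p up to 0.420 over all of these settings, the single-library ones and both others). The 9 neuron markers were all called higher in KI at day 16 (median 0.80), with sums of 4454 to 4662 CPM in flox and 7518 to 8348 CPM in KI. The 5 fibroblast and mesenchyme markers were all called lower, with sums of 3453 to 3743 against 954 to 1130.5 CPM, as were the 4 mesothelium markers, with 82.9 to 85.1 against 5.63 to 8.78 CPM (Msln at 3 reads or fewer in KI). Astrocyte and radial glia markers summed to 535 to 597 CPM in flox and 498 to 621 CPM in KI, but of the 5 tested 3 were called lower in KI (Gfap, Aqp4 and Slc1a3), 1 higher (Aldh1l1) and Fabp7 not called, with a median of -1.21. Gfap, the filament protein of astrocytes, was at 19.2 and 23.4 CPM in flox and 1.71 and 1.82 CPM in KI, and the glutamate transporter gene Slc1a3 at 158 and 174 and 71.4 and 72.8 CPM. The neuron markers and most receptor genes were higher in the same libraries, and the part of the change in cell make-up in the receptor differences was not tested.

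**Figure D3:**
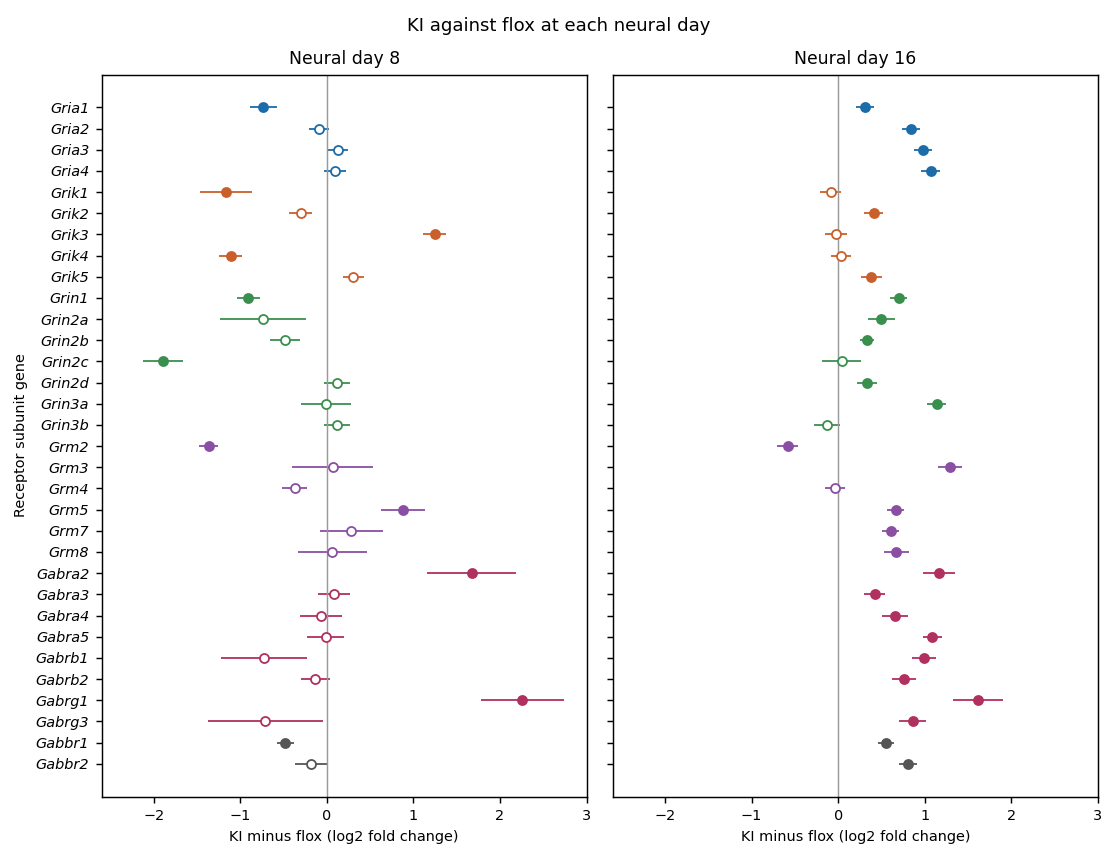
KI minus flox difference (log2 fold change) of each receptor subunit gene at neural day 8 (left) and day 16 (right), with standard errors as bars and filled points where the edgeR adjusted p was under 0.05. Filled points lie on both sides of 0 at day 8, and at day 16 they lie to the right of 0 for all called genes but Grm2.

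Genes that work with these receptors rose as well, with smaller medians. All 14 auxiliary subunits of AMPA and kainate receptors, which steer traffic and gating, were called higher at day 16 in both genotypes, with median log2 changes of 2.69 in flox and 3.63 in KI, beside 38.4% of all genes called higher in flox and 40.7% in KI. Cnih2, a cornichon protein that slows AMPA channel closing, went from 24.7 ± 1.01 to 131 ± 4.07 CPM in flox and from 20.9 ± 4.24 to 229.6 ± 7.62 CPM in KI. Shisa7, an AMPA receptor partner that also acts on GABA-A receptors, went from 27 ± 0.878 to 152 ± 10.8 CPM in flox and from 19.7 ± 4.30 to 185 ± 0.914 CPM in KI. Neto2, a kainate receptor partner, went from 31.2 ± 0.206 to 83.3 ± 22.8 CPM in flox and from 28.9 ± 4.84 to 126 ± 0.993 CPM in KI. Of 16 excitatory scaffold genes 13 were called higher and 2 lower in flox, and 14 and 2 in KI (medians 1.59 and 2.17), beside 77.1% and 79.9% of all genes called either way. Shank1, a large scaffold of the postsynaptic density, went from 28.8 ± 0.292 to 335 ± 28.3 CPM in flox and from 50.1 ± 5.14 to 518 ± 71.1 CPM in KI. Dlg4 (PSD-95), which holds NMDA receptors, went from 65.7 ± 0.762 to 306 ± 20.7 CPM in flox and from 50.0 ± 2.47 to 399.8 ± 5.60 CPM in KI, and its partner Dlgap4 from 99.5 ± 0.492 to 210.4 ± 6.10 CPM in flox and from 98.6 ± 4.21 to 250.3 ± 2.15 CPM in KI. The 2 that fell were Dlg1 and Homer3, with log2 changes of -0.64 and -1.72 in flox and -1.72 and -2.33 in KI; these names were chosen after their values were seen.

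Of 9 inhibitory scaffold and GABA receptor partner genes 8 were called higher in flox and 9 in KI, and none lower (medians 1.82 and 1.84), beside the same 38.4% and 40.7% of all genes called higher. Nlgn2, the adhesion protein of inhibitory synapses, went from 159 ± 2.15 to 338 ± 23.03 CPM in flox and from 165 ± 11.8 to 426 ± 68.9 CPM in KI, and Lhfpl4, which anchors GABA-A receptors, from 61.0 ± 0.0555 to 168 ± 7.97 CPM in flox and from 65.1 ± 5.68 to 233 ± 18.9 CPM in KI. Gabarap, which binds gamma subunits and also acts in autophagy, was at 159 ± 1.44 and 152 ± 12.7 CPM in flox and 133 ± 6.41 and 170.1 ± 8.83 CPM in KI at the same days and was not called in flox. Between genotypes at day 16, the auxiliary list had 5 genes higher and none lower in KI (median 0.14), the excitatory scaffold 12 higher and 3 lower (0.38), and the inhibitory list 5 higher and 1 lower (0.24), beside a median of 0.63 for the receptor genes and 0.09 for all genes, of which 46.9% were called (27.1% higher, 19.7% lower).

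Across all 18 groups of the series, day 16 neural cultures held the highest mean of 29 of the 32 genes by CPM over library totals. For 25 the highest group was KI at day 16, and for Grik1, Grik3, Grik4 and Grm4 it was flox at day 16. The libraries of the 2 highest groups overlapped at Gria1, Gria3, Grik3, Grik4, Grik5 and Grin2d, so that their order is not settled, and the same holds for Grin3b. Scaled by TMM, flox and KI day 16 libraries also overlapped at Grik1 (38.0 and 35.9 against 32.6 and 37.1 CPM). They did so too at Grm4 (38.6 and 48.6 against 41.5 and 43.4 CPM), so that the order is not settled for either gene. Of the 3 exceptions, Grm2 was highest in flox progenitors at day 8 (62.3 CPM), with KI progenitors next (23.6 CPM). Grin2c was highest in flox embryoid bodies at day 4 (27.7 CPM, 1 library) and next at day 10 (15.9 CPM, 1 library). Grin3b was highest in Ctr embryos at E8.5 (7.66 CPM) and lowest in flox extraembryonic endoderm (2.39 CPM). Gria3 was the one gene whose runner-up lay outside the neural cultures among those that peaked at day 16: it reached 45.0 CPM in KI embryoid bodies at day 10. Outside neural cultures most members were low: at most 16 of 32 reached 1 CPM in every library of a group, and 4 or fewer reached 10 CPM in each group but flox embryoid bodies at day 10, where 6 did. Gabbr1, Grik5, Grik3 and Grin3b kept the highest levels throughout the 18 groups, with lowest group means of 29.7, 2.91, 2.30 and 2.39 CPM. Other members were also read in each group, such as Grin2d and Gria3, with lowest group means of 0.899 and 0.212 CPM.

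**Figure D4:**
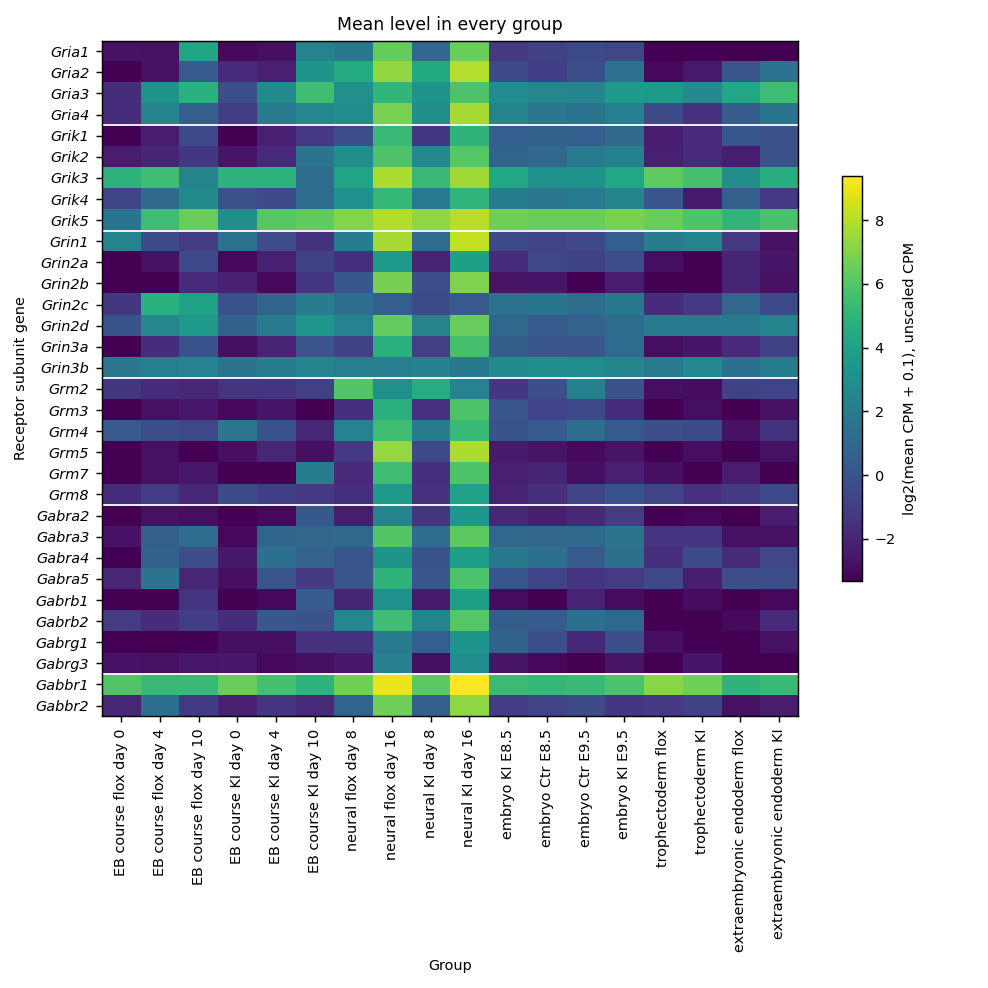
Mean level of each receptor subunit gene (rows) in each of the 18 groups (columns), as log2 of unscaled CPM plus 0.1, from low (dark) to high (bright). The 2 day 16 neural columns are the brightest for most rows, while Gabbr1, Grik5, Grik3 and Gria3 are also bright elsewhere.

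In whole embryos 26 of the 32 members passed the filter on low counts, and few differed at E8.5. Grik3 was the one member called there, higher in KI, where 5.46% of all genes were called (3.63% higher, 1.83% lower). Grik3 was at 8.57, 8.58 and 8.02 CPM in the 3 Ctr embryos at E8.5 and 16.2, 23.9 and 20.6 CPM in the 3 KI embryos. At E9.5, Grik3 was at 10.4, 9.79 and 6.81 CPM in Ctr and 21.7, 18.8 and 17.4 CPM in KI. At both stages each KI embryo stood above each Ctr embryo. The log2 difference of Grik3 was 1.27 (SE 0.168, edgeR adjusted p = 1.77e-04) at E8.5 and 1.099 (SE 0.166, edgeR adjusted p = 6.94e-05) at E9.5, the direction also seen in day 8 neural progenitors.

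At E9.5, 7 members were called higher in KI and 1 lower, beside 14.6% and 14.9% of all genes. Gria2 was at 0.702, 0.385 and 0.196 CPM in the 3 Ctr embryos at E8.5 and 0.586, 0.236 and 1.26 CPM in the 3 KI embryos. At E9.5, Gria2 was at 0.508, 0.828 and 0.834 CPM in Ctr and 2.41, 2.80 and 2.66 CPM in KI. Gria2 was under 2 CPM in each embryo but the KI embryos at E9.5. Gria3 was at 4.61, 5.62 and 7.77 CPM in the 3 Ctr embryos at E8.5 and 5.59, 7.69 and 8.22 CPM in the 3 KI embryos. At E9.5, Gria3 was at 5.16, 4.61 and 6.72 CPM in Ctr and 11.8, 11.3 and 14.6 CPM in KI. For both AMPA genes the KI embryos at E9.5 stood above all others. The E9.5 difference was 1.85 (SE 0.506, edgeR adjusted p = 0.00937) for Gria2 and 1.198 (SE 0.218, edgeR adjusted p = 4.02e-04) for Gria3. Gabra4 was at 3.01, 2.27 and 2.44 CPM in the 3 Ctr embryos at E8.5 and 4.38, 2.73 and 3.34 CPM in the 3 KI embryos. At E9.5, Gabra4 was at 1.37, 1.01 and 0.790 CPM in Ctr and 2.69, 2.42 and 2.23 CPM in KI. Gabra4, a GABA-A alpha gene, differed by 1.21 (SE 0.312, edgeR adjusted p = 0.00657) at E9.5, where the Ctr embryos were the low ones.

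Gabbr1 was at 31.5, 37.8 and 39.7 CPM in the 3 Ctr embryos at E8.5 and 33.7, 41.6 and 47.8 CPM in the 3 KI embryos. At E9.5, Gabbr1 was at 36.1, 38.7 and 39.2 CPM in Ctr and 50.6, 55.2 and 56.3 CPM in KI. At E9.5 each KI embryo stood above each Ctr embryo for Gabbr1, the GABA-binding subunit, with a difference of 0.51 (SE 0.110, edgeR adjusted p = 0.00181). Grik5 was at 87.7, 93.8 and 89.7 CPM in the 3 Ctr embryos at E8.5 and 93.7, 110.1 and 101 CPM in the 3 KI embryos. At E9.5, Grik5 was at 85.0, 84.2 and 91.9 CPM in Ctr and 98.7, 109 and 121 CPM in KI. Grik5, the high-affinity kainate subunit, also had no overlap at E9.5, with a smaller difference of 0.33 (SE 0.0778, edgeR adjusted p = 0.00326). Grin3a was at 0.652, 1.35 and 0.929 CPM in the 3 Ctr embryos at E8.5 and 1.49, 1.08 and 1.26 CPM in the 3 KI embryos. At E9.5, Grin3a was at 1.29, 1.04 and 0.527 CPM in Ctr and 1.84, 2.17 and 2.15 CPM in KI. Grin3a, the glycine-binding NMDA subunit, was called at the margin (1.09, edgeR adjusted p = 0.0482) and lost its call under 9 alternatives, 5 of them without a single E9.5 embryo (any of the KI replicates, or Ctr replicates 2 or 3), with adjusted p of 0.0504 to 0.173.

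Grm2 was at 0.451, 1.04 and 0.880 CPM in the 3 Ctr embryos at E8.5 and 0.271, 0.0943 and 0.542 CPM in the 3 KI embryos. At E9.5, Grm2 was at 4.69, 5.72 and 3.16 CPM in Ctr and 0.408, 1.34 and 0.730 CPM in KI. Grm2 was the one member lower in KI at E9.5: the Ctr embryos stood above the other 9. The difference was -2.45 (SE 0.475, edgeR adjusted p = 6.99e-04) at E9.5. Between the stages, Grm2 rose in Ctr by 2.50 (SE 0.479, edgeR adjusted p = 7.29e-04) and Gabra4 fell, with a log2 change of -1.27 (SE 0.313, edgeR adjusted p = 0.00546); they were the 2 members called, beside 24.2% of all genes. In KI embryos Gria2 (1.90), Gria3 (0.81), Grik2 (1.504), Grm8 (2.50) and Gabbr1 (0.40) rose and Grm3 fell (-2.31), beside 32.5% of all genes. Grik2, a kainate subunit gene, was at 0.902, 2.26 and 1.72 CPM in KI embryos at E8.5 and 3.43, 4.76 and 5.66 CPM at E9.5, without overlap. Without KI E8.5 replicate 3 the changes of Gria2 and Grm8 were 2.63 and 3.41. Leaving out KI embryos ended the call of Grm8 (without E8.5 replicates 1 or 2 or E9.5 replicates 2 or 3, adjusted p up to 0.137), of Grm3 (without E8.5 replicates 2 or 3 or E9.5 replicate 1, up to 0.0699) and of Gabbr1 (without E8.5 replicate 1, 0.0777).

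The difference between the stage effects of KI and Ctr was called for none of the 26 members by edgeR (6.63% of all genes, 3.39% higher and 3.24% lower), though 3 had an unadjusted p under 0.05. Gria3 was closest (0.94, edgeR adjusted p = 0.0748) and was called by DESeq2 (adjusted p = 0.0444), by edgeR with a replicate block (0.0162) and by edgeR without Ctr E8.5 replicate 1 (0.0428) or Ctr E9.5 replicate 3 (0.0378). Other markers moved with these results at E9.5: neuron markers summed to 205 to 306 CPM in Ctr and 58.6 to 62.7 CPM in KI, endoderm markers to 102 to 111 and 237 to 253 CPM, trophoblast markers to 149 to 317 and 422 to 469 CPM, and cardiomyocyte markers to 256 to 325 and 650.0 to 1239 CPM. Progenitor markers were lower in KI without overlap, at 766 to 990.2 CPM in Ctr and 453 to 552 CPM in KI, the direction of Grm2. Fibroblast and mesenchyme markers (926 to 1547 and 1554 to 2185 CPM), mesothelium markers (31.9 to 50.8 and 61.7 to 80.5 CPM) and oligodendrocyte lineage markers (179 to 216 and 240.3 to 249 CPM) were higher in KI without overlap. The 7 receptor genes higher in KI were thus higher in the embryos with the lower neuron and progenitor marker sums, and the part of these shifts in cell make-up was not tested. At E8.5 the neuron marker sums overlapped, at 66.0 to 77.3 CPM in Ctr and 62.1 to 78.0 CPM in KI. Other sums did not overlap at E8.5: cardiomyocyte markers summed to 457 to 721 CPM in Ctr and 756 to 1199 CPM in KI, fibroblast and mesenchyme markers to 506 to 722 and 758 to 1411 CPM, endoderm markers to 178 to 228 and 231 to 294 CPM, trophoblast markers to 542 to 681 and 770.0 to 891 CPM, all with KI above, and progenitor markers to 501 to 551 and 418 to 461 CPM, with KI below. Their part in the Grik3 difference at E8.5 was not tested.

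In trophectoderm and extraembryonic endoderm cultures, which are not neural, 19 of the 32 members passed the filter. Of these, 4 were called in opposite directions in the lineages, and the share of all genes called so was not counted. In trophectoderm 1 member was called higher and 5 lower in KI, beside 50.9% of all genes (26.7% higher, 24.2% lower), and in endoderm 5 were called higher and none lower, beside 35.5% (18.1% higher, 17.4% lower). Gria3, Grik3, Grik5 and Gabbr1 were lower in KI trophectoderm and higher in KI endoderm. Grik3 was at 72.3 and 75.3 CPM in flox and 45.7 and 51.9 CPM in KI trophectoderm cultures. In extraembryonic endoderm, Grik3 was at 7.70 and 7.91 CPM in flox and 27.5 and 21.4 CPM in KI. KI was below flox in the first lineage and above it in the second, without overlap. The KI minus flox difference of Grik3 was -0.60 (SE 0.107, edgeR adjusted p = 3.19e-04) in trophectoderm and 1.65 (SE 0.134, edgeR adjusted p = 3.94e-07) in endoderm.

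Gria3 was at 11.2 and 12.0 CPM in flox and 5.38 and 6.76 CPM in KI trophectoderm cultures. In extraembryonic endoderm, Gria3 was at 20.3 and 20.2 CPM in flox and 43.0 and 43.7 CPM in KI. For this AMPA gene KI was again lower in trophectoderm, by a log2 difference of -0.93 (SE 0.140, edgeR adjusted p = 6.66e-05), and higher in endoderm, by 1.098 (SE 0.125, edgeR adjusted p = 1.01e-05). Grik5 was at 90.5 and 87.9 CPM in flox and 58.3 and 59.2 CPM in KI trophectoderm cultures. In extraembryonic endoderm, Grik5 was at 35.6 and 33.4 CPM in flox and 46.4 and 60.3 CPM in KI. Grik5 likewise had no overlap in either lineage, with differences of -0.60 and 0.63. Gabbr1 was at 133 and 139.5 CPM in flox and 86.7 and 102 CPM in KI trophectoderm cultures. In extraembryonic endoderm, Gabbr1 was at 31.5 and 32.3 CPM in flox and 41.1 and 37.6 CPM in KI. Gabbr1 differed by -0.53 and 0.30, the second call lost without flox replicates 1 or 2 or KI replicate 27 (edgeR adjusted p up to 0.116). The difference between the lineages was itself called for each of the 4, at -2.25 (Grik3), -2.03 (Gria3), -1.23 (Grik5) and -0.84 (Gabbr1). It was called for 6 of the 19 members tested, a share not above the 35.3% of all genes (18.3% higher, 17.0% lower).

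Gria4 (-2.59) and Grin1 (3.10) were also called for that difference, with edgeR adjusted p = 0.0173 and 0.0327. Gria4 was at 0.559 and 0.743 CPM in flox and 0.145 and 0.356 CPM in KI trophectoderm cultures. In extraembryonic endoderm, Gria4 was at 1.5 and 1.00 CPM in flox and 3.11 and 2.77 CPM in KI. Gria4 was low in both lineages, and lowest in KI trophectoderm. Grin1 was at 4.23 and 3.57 CPM in flox and 4.33 and 6.37 CPM in KI trophectoderm cultures. In extraembryonic endoderm, Grin1 was at 0.200 and 0.474 CPM in flox and 0.0943 and 0 CPM in KI. Both rest on low levels in one of the lineages, and the fitted value of Grin1 depends on the prior count, since KI endoderm held 3 reads or fewer. Leaving out 1 KI library moved Gria4 to -3.36 (trophectoderm replicate 48) and Grin1 to 2.20 or 6.47 (endoderm replicates 48 and 27). Gria4 lost the call without replicate 2 of flox or 27 of KI in either lineage (edgeR adjusted p up to 0.0684), and Grin1 without flox replicate 2 or KI replicate 48 of either lineage or trophectoderm flox replicate 1 (up to 0.212). Grin3b was at 3.27 and 3.90 CPM in flox and 6.25 and 5.62 CPM in KI trophectoderm cultures. In extraembryonic endoderm, Grin3b was at 2.50 and 2.42 CPM in flox and 3.77 and 4.57 CPM in KI. Grin3b was called higher in KI in both lineages (0.73, edgeR adjusted p = 0.0228, and 0.76, 0.0400), and both calls were lost by DESeq2, without either flox replicate, and without KI replicate 27 (trophectoderm) or 48 (endoderm) (adjusted p of 0.0539 to 0.152 and 0.103 to 0.180); the endoderm call was also lost with no filter on low counts (0.0528) and in a fit of the endoderm libraries alone (0.0526). Grik4 in trophectoderm, the fifth gene called lower, was at 0.678 and 1.11 CPM in flox and 0.182 and 0 CPM in KI, and its call was lost without flox replicate 2 or KI replicate 48; no fold is given at this depth.

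The KI cultures of both lineages differed from flox in their defining markers. In trophectoderm Cdx2, which the transgene also supplies, was at 26.2 and 29.0 CPM in flox and 101 and 107 CPM in KI, while Elf5 was at 15.6 and 18.4 and 0.8 and 1.64 CPM, and the pluripotency marker Pou5f1 at 215 and 216 and 62.7 and 108 CPM. The 5 pluripotency markers summed to 648 to 659.6 CPM in flox and 229 to 308 CPM in KI, and the 5 trophoblast markers to 2908 to 2987 and 4989 to 5281 CPM. In endoderm Gata4 was at 175 and 189 CPM in flox and 15.6 and 18.0 CPM in KI, Sox17 at 72.9 and 85.0 and 11.3 and 11.6 CPM, and the 5 endoderm markers summed to 827 to 857 and 227 to 235 CPM. Neuron markers summed to 103 to 107 CPM in flox and 28.0 to 29.6 CPM in KI trophectoderm, and to 159.6 to 162 and 87.0 to 101 CPM in endoderm. Progenitor markers summed to 396 to 421 CPM in flox and 81.9 to 98.6 CPM in KI trophectoderm, and to 474 to 489.7 and 461 to 555 CPM in endoderm. Fibroblast and mesenchyme markers summed to 289.7 to 293 and 69.9 to 118 CPM in trophectoderm and to 2004 to 2093 and 329 to 508 CPM in endoderm, cardiomyocyte markers to 25.8 to 28.9 and 4.58 to 5.05 CPM and to 38.8 to 42.4 and 19.1 to 22.9 CPM, and oligodendrocyte lineage markers to 94.1 to 94.2 and 61.3 to 63.0 CPM and to 93.8 to 94.4 and 57.0 to 68.0 CPM. The sums of astrocyte and radial glia markers were lower in KI in both lineages as well. The part of these shifts in the receptor differences was not tested.

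**Figure D5:**
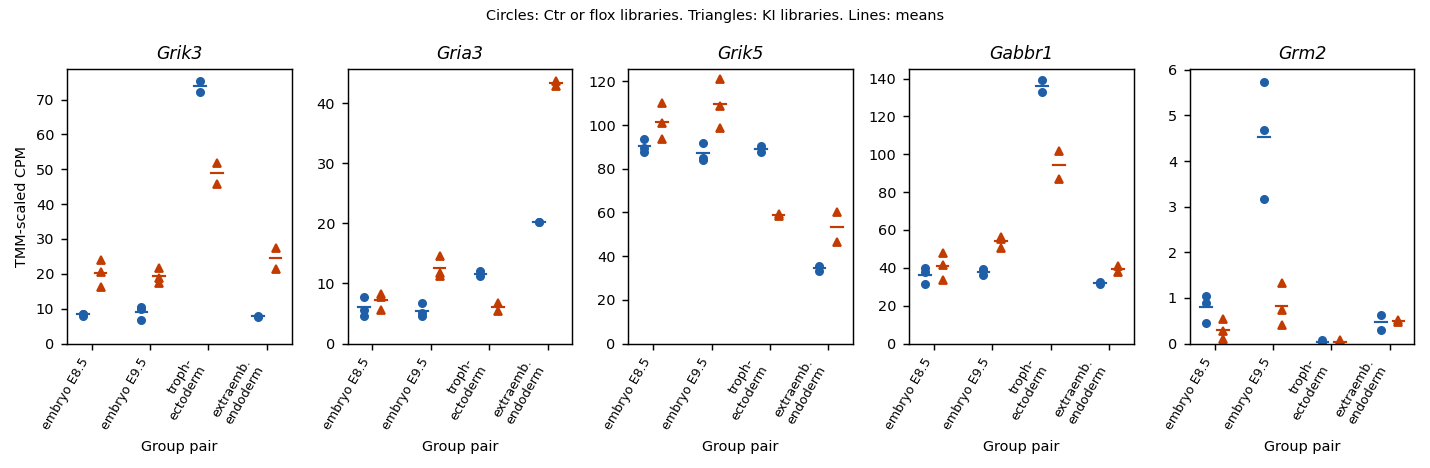
TMM-scaled CPM of Grik3, Gria3, Grik5, Gabbr1 and Grm2 in single libraries of embryos at E8.5 and E9.5, trophectoderm and extraembryonic endoderm, with blue circles for Ctr or flox, red triangles for KI and lines for group means; embryos and extraembryonic cultures were scaled separately, so that heights compare within each pair. Grik3 is higher in KI in both embryo stages and in endoderm and lower in trophectoderm, and Grm2 is high in the 3 Ctr embryos at E9.5 alone.

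In embryoid bodies 26 of 32 members passed the filter. Averaged over days 0, 4 and 10, KI minus flox was called for none of them by edgeR (0.707% of all genes, 0.400% higher and 0.306% lower), with 6 at an unadjusted p under 0.05; DESeq2 called Gria2 and Grin2c (adjusted p = 0.0194 and 0.0337). Flox had 1 library a day, and the fit took the KI effect to be the same on each day. The spread thus holds the differences between the KI lines and any change of the KI effect with day. A KI effect confined to some days was not tested. Grin2c was at 0.360, 26.95 and 14.9 CPM in the flox libraries of days 0, 4 and 10, and at 0.940 and 0.808, 1.44 and 1.76, and 3.91 and 3.63 CPM in the KI pairs. From day 0 to day 10, averaged over lines, 18 members were called higher and 5 lower, beside 76.7% of all genes (39.6% higher, 37.1% lower). Grik5 was at 3.30 CPM in flox and 9.13 and 7.76 CPM in KI at day 0, and at 85.0 CPM and 71.9 and 72.1 CPM at day 10, a rise of 3.58 (SE 0.297, edgeR adjusted p = 1.87e-05). Gria3 was at 0.240 CPM in flox and 1.12 and 0.494 CPM in KI at day 0, and at 25.9 CPM and 32.2 and 51.9 CPM at day 10, a rise of 5.84 (SE 0.491, edgeR adjusted p = 1.97e-05). For both genes each day 10 library stood above each day 0 library.

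Other AMPA, kainate, NMDA and GABA-A genes called higher at day 10 follow, with log2 changes where day 0 held more than 3 reads in a library. Gria4 was at 0.240 CPM in flox and 0.403 and 0.449 CPM in KI at day 0, and at 1.27 CPM and 3.24 and 7.65 CPM at day 10 (3.37). Grik2 was at 0.120 CPM in flox and 0.0896 and 0.0449 CPM in KI at day 0, and at 0.291 CPM and 2.43 and 2.73 CPM at day 10. Grik4 was at 0.6001 CPM in flox and 0.806 and 0.852 CPM in KI at day 0, and at 5.97 CPM and 1.91 and 2.30 CPM at day 10 (1.90). Grik2 was lowest in flox at day 10, and Grik4 was lowest in the KI lines. Grin2d was at 1.02 CPM in flox and 1.34 and 1.62 CPM in KI at day 0, and at 10.7 CPM and 7.11 and 11.4 CPM at day 10 (2.85). Grin3b was at 3.601 CPM in flox and 2.82 and 3.10 CPM in KI at day 0, and at 4.62 CPM and 5.15 and 4.53 CPM at day 10 (0.59). The Grin3b change was small, and its call was lost without a single KI library of day 0 or day 4 (either line) or of day 10 (line 27), and with the gene length trend removed (edgeR adjusted p of 0.0501 to 0.0983). Gabra3 was at 0.0600 CPM in flox and 0 and 0.0449 CPM in KI at day 0, and at 2.00 CPM and 1.05 and 2.22 CPM at day 10. Gabra4 was at 0 CPM in flox and 0.0896 and 0.0897 CPM in KI at day 0, and at 0.692 CPM and 0.620 and 2.18 CPM at day 10. Each day 10 library stood above each day 0 library for these GABA-A alpha genes, but they and Grik2 had 2 reads or fewer in each day 0 library, and no fold is given for them. Grm7, a metabotropic glutamate receptor gene, was at 0 CPM in each day 0 library and at 0.0728 CPM in flox and 2.82 and 4.88 CPM in KI at day 10.

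Grik3 and Gabbr1, 2 of the genes read in stem cells, fell. Grik3 was at 33.9 CPM in flox and 34.8 and 28.2 CPM in KI stem cells, and at 4.73 and 2.39 and 1.91 CPM at day 10, a log2 change of -3.50 (SE 0.234, edgeR adjusted p = 6.29e-06). Gabbr1 was at 70.7 and 88.1 and 104 CPM at day 0 and at 36.6 and 27.2 and 28.3 CPM at day 10, a change of -1.496 (SE 0.190, edgeR adjusted p = 1.67e-04). Both had risen in neural cultures between days 8 and 16. Grin1 was at 5.82 CPM in flox and 2.33 and 3.19 CPM in KI at day 0, and at 0.364 CPM and 0.0954 and 0.390 CPM at day 10. Grm4 was at 1.2 CPM in flox and 3.18 and 3.86 CPM in KI at day 0, and at 0.546 CPM and 0.143 and 0.156 CPM at day 10. Each day 10 library was below each day 0 library for both genes. Grin1 (-3.64), Grm4 (-3.19) and Grm8 (-1.09) were also called lower; Grm8 had edgeR adjusted p = 0.0494 and lost its call under 11 alternatives (up to 0.199), 5 of them without a single library (either KI line at day 4 or day 10, or flox at day 10). Grik1, Grm7, Gabra2 and Gabrb1 had no read in the 3 stem cell libraries, and no fold is given for them.

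Some day 10 values differed widely between the lines. Gria1 was at 16.4 CPM in flox and at 0.477 and 8.86 CPM in KI lines 27 and 48, and Gria2 at 1.09 CPM in flox and 12.1 and 5.66 CPM in KI. Gria1 was therefore lower in KI line 27 than in both other libraries, while Gria2 was lowest in flox. Without KI day 10 replicate 27, 15 members were called between days 10 and 0 in place of 23. Of the 8 that were not, Grin2c, Grin3b and Grm8 lost their calls, and Grik1, Grik2, Grm7, Gabra2 and Gabrb1 no longer passed the filter on low counts and were not tested. Single libraries also moved sizes: Gria3 was at 6.54 without KI day 0 replicate 27, Gria4 at 2.62 without KI day 10 replicate 48, and Grm4 at -4.34 without flox day 10 and -3.88 without flox day 0, all log2 changes from day 0 to day 10. Marker sums moved over these days as well: the 5 pluripotency markers, all called lower at day 10, summed to 4532 CPM in flox and 3632 to 3959 CPM in KI at day 0 and to 43.9 and 100.1 to 119 CPM at day 10. The 5 fibroblast and mesenchyme markers, all called higher, summed to 12.7 and 15.1 to 18.7 CPM at day 0 and to 11221 and 5716 to 14086 CPM at day 10, and the 5 cardiomyocyte markers, also all called higher, to 1.98 and 4.76 to 5.64 and to 1573 and 172 to 259.6 CPM. Of the 9 neuron markers, 2 were called higher and 3 lower, and the part of these shifts in the receptor changes was not tested.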

How the data were processed

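RNA was made into libraries with a poly(A) kit that does not mark strand, per the labels' protocols. The authors deposited, for each of 37 libraries, a raw read count and an RPKM value per RefSeq transcript, per the file headers. The submitters' processing notes name STAR, Bowtie2, bcl2fastq, SICER 1.1 and the mm9 genome, without roles, and the counting tool is not given in the sources used here. The other 63 of 100 samples of the series were not analysed here.

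Of 29082 transcripts, 28432 matched a gene symbol through RefSeq names (22459 symbols) and 650 kept their own entry, which gave 23109 entries, each read from the transcript with most reads over all libraries. Counts were tested as deposited with edgeR 4.0.16 (R 4.3.3): filterByExpr, TMM scaling, robust quasi-likelihood fits over group means (embryoid bodies: genotype and day) and Benjamini-Hochberg adjustment over 15436 to 16439 genes. The 4 fits held 8 neural, 12 embryo, 8 extraembryonic and 9 embryoid body libraries. DESeq2 1.42.0, other scalings, no filter, summed transcripts, a gene length correction, a replicate block, fits of only the libraries compared and leaving out each library were tried as alternatives. The script was tested on simulated counts. Fold changes are in log2, with SE taken from the F statistic. The deposited RPKM served only for shares between genes. Counts of 0 allow up to 3 reads, counting error only.

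The members and the partner and marker lists were chosen with earlier results of these data known. Every neural value is given for the 2 genes of each class with the highest mean CPM, for the 3 largest and 3 smallest day changes, and for day effects that differed between genotypes by at least 2-fold and were called. Elsewhere values are given for called members with a mean of at least 1 CPM in a group compared, and 3 genes are named per partner list, by mean CPM.

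KI lines 27 and 48 pair libraries of different days or lineages by their origin (correlation of deviations 0.246 in neural cultures and 0.236 in extraembryonic ones), and flox numbers did not (0.0849 and -0.0104). The numbers in the E8.5 embryo titles, whose meaning is not given, paired KI with Ctr embryos (0.134 to 0.334).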

Additional observations from a re-analysis of the deposited data

Results flagged for a closer look

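The change from day 8 to day 16 differed between KI and flox at 18 receptor genes by edgeR's test of the difference itself, beside 33.2% of all genes. On the log2 scale (KI minus flox), it was 1.05 (Gria1), 0.94 (Gria2), 0.85 (Gria3) and 0.98 (Gria4) for the AMPA genes. The kainate genes stood at 1.09 (Grik1), 0.72 (Grik2), -1.26 (Grik3) and 1.15 (Grik4), so that Grik3 alone of the 18 changed less upward in KI. NMDA genes differed by 1.61 (Grin1), 0.82 (Grin2b), 1.94 (Grin2c) and 1.15 (Grin3a). Grm2, which fell in both genotypes, differed by 0.78. The GABA receptor genes differed by 1.103 (Gabra5), 1.72 (Gabrb1), 0.90 (Gabrb2), 1.03 (Gabbr1) and 1.00 (Gabbr2). The value of Gabrb1 rests on 9 reads or fewer in each day 8 library, so that its size is uncertain. The calls of Grik1, Grin3a, Gabrb1 and Gabrb2 were each lost without at least 1 single library.

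Between trophectoderm and extraembryonic endoderm, the KI minus flox difference itself differed at 6 of the 19 genes tested, beside 35.3% of all genes. On the log2 scale (trophectoderm minus endoderm), it was -2.03 for Gria3, -2.59 for Gria4, -2.25 for Grik3, -1.23 for Grik5, -0.84 for Gabbr1 and 3.10 for Grin1, the last from 2 and 0 reads in KI endoderm. The size for Grin1 is not settled: without KI endoderm replicate 48 or 27 it was 2.20 or 6.47. Flox endoderm held only 4 and 9 reads of Grin1. As given above, the results of Grin1 and Gria4 depended on single libraries.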

How the results depend on the processing

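Over 5305 single-gene values under the alternatives, 4990 kept their direction and their side of the threshold, 108 lost a call, 56 gained one, 151 uncalled values changed sign, and no called value reversed. The count of members called moved by more than 1.5 times in the cases that follow, and their cause was not tested but where given. DESeq2 called 4 members between stages in Ctr embryos in place of 2, 1 in place of 0 for the difference of the stage effect, and 2 in place of 0 for KI against flox in embryoid bodies (1 higher, 1 lower). Fitting only the endoderm libraries gave 8 calls in place of 5 there (6 higher, 2 lower). Leaving out single libraries gave 7 to 9 calls in place of 11 for day 8 neural cultures (fewest without KI replicate 48), 0 to 1 for the difference of the stage effect, 3 to 5 in endoderm (fewest without flox replicate 2), 0 to 2 for KI against flox in embryoid bodies (most without flox day 0), and 15 to 24 in place of 23 between embryoid body days 10 and 0 (fewest without KI day 10 replicate 27, where 5 of the 8 were no longer tested). Where a lone library was left in a group, it was assumed to vary like the others of the fit.

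With a replicate block, 31 members were called between days in flox and in KI, 20 for the neural difference, 1 at E8.5, 6 between the extraembryonic lineages and 22 between embryoid body days. At E9.5, where the numbers shared by embryos did not pair throughout, the block gave 9 calls (Gabrg1 added, 2.06, edgeR adjusted p = 0.0420), and for the difference of the stage effect it gave 1 (Gria3, edgeR adjusted p = 0.0162). The block changed no call beyond those given here and beside the results. No paired analysis was possible for KI against flox in culture or between embryo stages because those groups share no line or number.

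Library totals in place of TMM factors moved the median of all genes from 0.01 to -0.19 for the day effect in KI and from 0.05 to 0.26 between embryoid body days. Depth limits members under 1 CPM at day 8 and those filtered out elsewhere: for these, a difference was not detectable at this depth. The flox day 8 replicates were the closest pair (chi-square per degree of freedom 1.5 over genes, against 2.76 to 54.8 for the other pairs) and were kept as 2 libraries.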
